A study of Mus musculus with 8 samples.

Results

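The genes described here are mouse germline genes known for being kept silent by DNA methylation outside germ cells, measured in late morulae after knockdown of the histone-binding proteins Rbbp4 and Rbbp7. The list named 42 genes, and a gene was kept when its Ensembl identifier had a row of normalized abundance that was above 0 in at least 2 of the 8 libraries. By that rule 40 of the 19058 genes in the table were members, of which 32 averaged 10 or more across the libraries and were tested. The 8 members below that level were Tex11, Taf7l, Tdrd1, Piwil1, Piwil4, Tuba3b, Spo11 and Mei4. Tdrd6 was above 0 in 1 library and was left out, and Meiob was not analysed here. The members fall into synaptonemal complex and meiosis genes (17 members, 14 tested), piRNA pathway genes (11 members, 8 tested) and other germline genes (12 members, 10 tested).

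All embryos were mouse embryos injected as zygotes with small interfering RNA (siRNA) and collected 78 h after fertilization, as late morulae. The 4 groups of 2 libraries were the double knockdown (siRNA against both Rbbp4 and Rbbp7), the Rbbp4 knockdown, the Rbbp7 knockdown and the control, which received a non-specific siRNA. No strain or genotype is given in the labels used here. Nothing in the labels ties the libraries of a group to separate pools of embryos, and each p-value therefore measures only the spread between these libraries, which may be technical.

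Germline genes carry out meiosis, the piRNA defence against transposons and the building of gametes. In mouse embryos and somatic cells many of them are shut by methylation of the CpG sites in their promoters. A non-canonical Polycomb complex, which finds its sites through the E-box-binding pair Mga and Max and through E2f6, also represses many of them in mouse embryonic stem cells. Rbbp4 and Rbbp7 are subunits shared by several chromatin complexes that deacetylate, methylate or assemble nucleosomes. DNA methylation was not measured in these embryos.

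Promoter sequence is shown for 4 members because it holds the letters those factors are known to read, and because these members were among those with high values in the double knockdown. They were picked by those values, so their letters are an illustration and do not stand for the members as a whole. Each line gives the 250 bases before the RefSeq start, on the gene's strand, 5′ to 3′, from RefSeq on GRCm38.p6. Capitals mark CACGTG, the E-box, and GCGGGA or its reverse complement, a core that resembles E2F sites. The windows are chr3:102936101-102936350 on the minus strand for Sycp1, chr3:95559427-95559676 on the plus strand for Hormad1, chrX:134476491-134476740 on the minus strand for Taf7l and chr6:125286082-125286331 on the minus strand for Tuba3a.
Sycp1: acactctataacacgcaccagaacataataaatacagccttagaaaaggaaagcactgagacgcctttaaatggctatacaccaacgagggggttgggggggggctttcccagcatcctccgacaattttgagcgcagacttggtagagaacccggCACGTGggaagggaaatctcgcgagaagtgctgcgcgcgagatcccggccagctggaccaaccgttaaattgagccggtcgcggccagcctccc
Hormad1: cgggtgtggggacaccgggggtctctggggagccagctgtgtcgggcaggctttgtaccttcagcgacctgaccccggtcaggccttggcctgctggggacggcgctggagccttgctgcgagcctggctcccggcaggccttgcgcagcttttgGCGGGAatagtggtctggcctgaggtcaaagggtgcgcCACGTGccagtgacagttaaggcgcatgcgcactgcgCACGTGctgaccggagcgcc
Taf7l: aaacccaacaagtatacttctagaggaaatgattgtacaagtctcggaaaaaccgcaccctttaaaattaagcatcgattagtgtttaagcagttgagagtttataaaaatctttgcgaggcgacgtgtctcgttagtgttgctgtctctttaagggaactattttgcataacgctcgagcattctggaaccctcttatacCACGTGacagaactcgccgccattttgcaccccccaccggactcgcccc
Tuba3a: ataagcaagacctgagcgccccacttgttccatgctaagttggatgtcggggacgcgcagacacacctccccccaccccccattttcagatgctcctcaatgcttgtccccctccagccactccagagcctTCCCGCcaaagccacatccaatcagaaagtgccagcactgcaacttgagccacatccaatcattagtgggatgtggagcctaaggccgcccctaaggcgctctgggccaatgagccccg

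The Sycp1 window holds its E-box 94 bases before the start, and the Taf7l window 49 bases before the start. Hormad1 has E-boxes 57 and 20 bases before the start and the GCGGGA core 95 bases before it. Tuba3a holds no CACGTG in this window and has the core on the opposite strand, 119 bases before the start. Of the 40 members, 36 had an entry in the promoter table, with 43 windows in all. CACGTG, which reads the same on both strands, was in 19 of these windows (44.2%) and upstream of 16 of the 36 genes. The same letters were in 1020 of 12103 windows of the tested genes (8.43%) and in 1978 of all 32851 windows (6.02%). GCGGGA, searched on both strands, was in 17 of the members' windows (39.5%), against 30.0% for the tested genes and 16.9% for all windows. The motifs do not overlap each other's letters. The members' windows held a median of 16 CpG sites, against 16 for the tested genes and 6 for all windows. A match is a description of these letters and no evidence of binding.

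**Figure D1:**
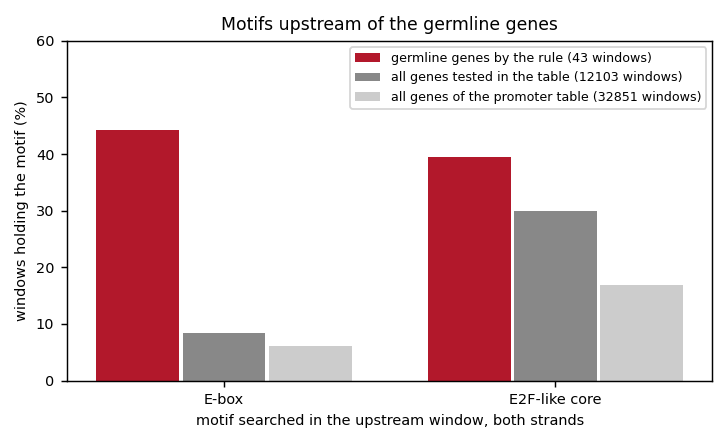
Share of upstream windows (vertical axis, percent) that hold the E-box letters CACGTG or the E2F-like letters GCGGGA on either strand, for the 43 windows of the germline genes, the 12103 windows of all tested genes and all 32851 windows. The E-box bar of the germline genes stands at 44.2%, against 8.43% and 6.02%, while the E2F-like bars lie closer together, at 39.5%, 30.0% and 16.9%.

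The targets were low where they were targeted. Rbbp4 was at 7.80% of the control mean in the double knockdown and 7.44% after Rbbp4 knockdown, and Rbbp7 at 3.80% in the double knockdown and 3.79% after Rbbp7 knockdown. Library totals of normalized abundance were 11334100 to 12011800. Control replicate 1 stood apart, with 3937 genes at 0, where the remaining libraries had 2644 to 3237, and with the lowest mean correlation with the others (0.938). The control libraries also differed in the germline genes themselves. The median deviation of the tested members from each gene's mean over the 8 libraries was 0.29 and 0.23 on the log2 scale in the double knockdown, −0.012 and −0.084 after Rbbp4 knockdown, −0.051 and −0.057 after Rbbp7 knockdown, and 0.077 and −0.22 in the control. Over all tested genes the same median lay between 0.0035 and 0.013 in every library. Control replicate 2 had the lowest of the 8 values for 11 of the 32 tested members, and the double knockdown libraries had the highest for 9 and 10.

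**Figure D2:**
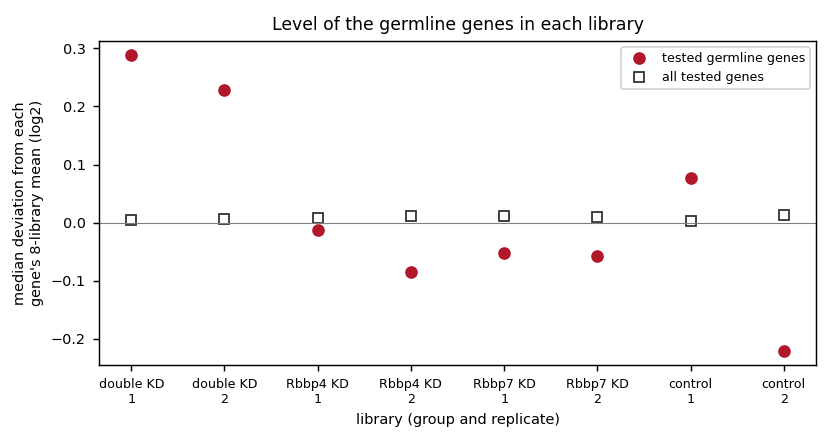
Median deviation of the 32 tested germline genes (filled points) and of all 12565 tested genes (open squares) from each gene's mean over the 8 libraries, in log2 units, by library. The double knockdown libraries lie highest at 0.29 and 0.23, the control libraries lie apart from each other at 0.077 and −0.22, and all tested genes stay near 0.

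Most members had transcripts in every group. Per kilobase of exon, mean normalized abundance over the 8 libraries was highest for Tex19.1 (1119), followed by Syce2 (314), Sycp3 (243), Dpep3 (229), Hormad1 (216) and Piwil2 (198). At the low end, Spo11 and Mei4 had 0.162 and 0.185 per kilobase. The number of members above 0 was 38 in both double knockdown libraries, 38 and 37 after Rbbp4 knockdown, 37 and 38 after Rbbp7 knockdown, and 36 and 38 in the control. The name of the list comes from what is known of these genes elsewhere, and several were plainly detected in control morulae. In these bulk libraries a change in the number of expressing cells and a change in RNA per cell cannot be told apart.

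In the double knockdown the germline genes lay higher than in the control as a list, and 1 member passed the test. Sycp1 rose, and Tex15, Tuba3a, Hormad1 and Stag3 had log2 differences above 1 that did not pass. Tex14 had the lowest difference and did not pass either. Of the 32 tested members 23 had a positive log2 difference, the median was 0.47 and the middle range ran from −0.0080 to 0.75, while the median over all 12565 tested genes was −0.00056. Limma with Benjamini-Hochberg adjustment over all tested genes called 1 member higher and 0 lower, where 1.15% of all genes were called. At an unadjusted p below 0.05, 7 members were higher and 1 lower, which is 25.0% of the members, against 17.3% of all tested genes. Both double knockdown libraries lay above both control libraries for 13 members (40.6%), against 21.9% of all genes, and below both for 2 members (6.25%), against 22.2%. The median depended on the control libraries, at 0.61 without control replicate 1 and 0.19 without control replicate 2.

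**Figure D3:**
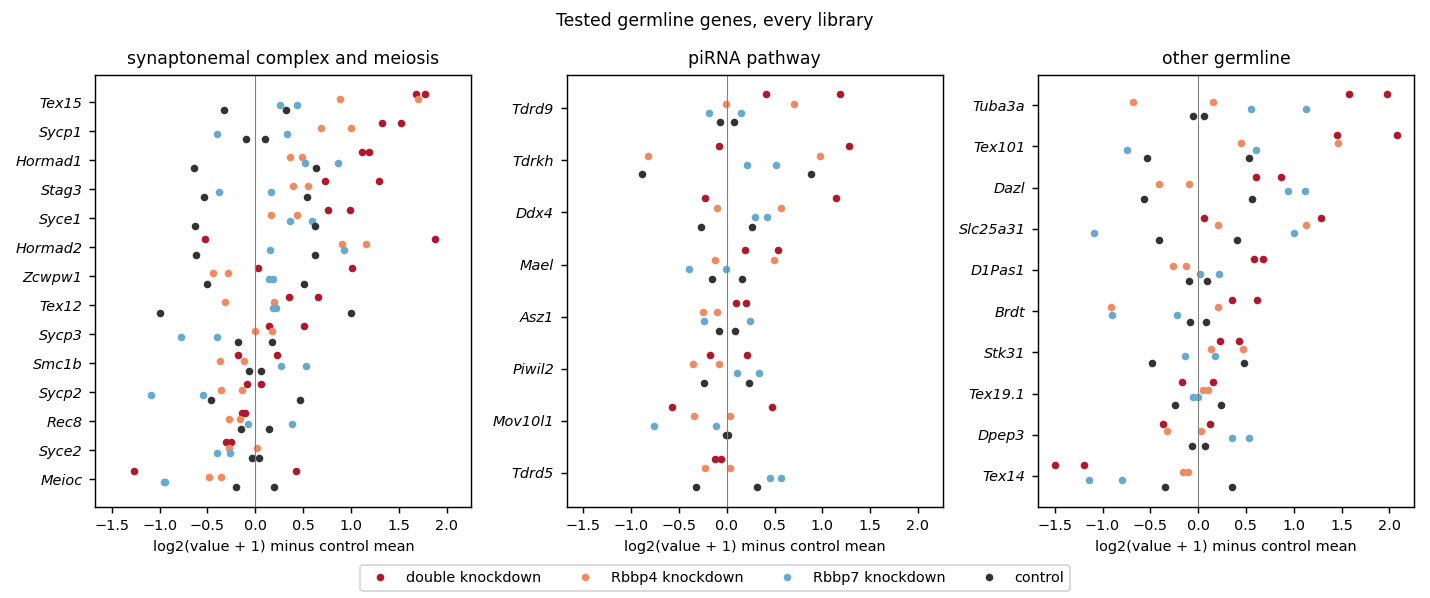
Every library's value for the 32 tested germline genes, as log2(value + 1) minus the mean of the 2 control libraries (horizontal axis), in 3 panels by role, with genes ordered by the double knockdown difference. The double knockdown points of Tex15, Sycp1 and Tuba3a lie to the right of both control points, those of Tex14 lie to the left, and the control points of many genes are spread widely.

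Among the meiosis genes, Tex15, Sycp1, Hormad1 and Stag3 had the largest differences in the double knockdown. The median log2 difference of the 14 tested was 0.51, with 10 positive and 1 called. Sycp1 (ENSMUSG00000027855, chromosome 3, 102818499 to 102936100, minus strand, GRCm38) encodes the transverse filament that zips paired chromosomes in the synaptonemal complex. Its normalized abundance was 339 and 389 in the double knockdown, 217 and 269.5 after Rbbp4 knockdown, 101 and 169 after Rbbp7 knockdown, and 144 and 125 in the control. Both double knockdown values were above all others, both Rbbp4 knockdown values were above the control values, and the Rbbp7 knockdown values spanned the control values. Of the 75-base stretches of Sycp1, 2.62% also occur in other genes, 34 in all, most often in Sycp1-ps1. The group means of Sycp1 were 364 ± 35.8 in the double knockdown and 135 ± 13.1 in the control (SD, n = 2 each). The log2 difference was 1.43 ± 0.27 (SE; 95% interval 0.82 to 2.04; adjusted p = 0.0458, limma), and it kept its direction in all 19 alternative settings. The call itself was lost in 11 of them, where the adjusted p reached 0.142, as it was without either double knockdown library (0.134 and 0.142), either Rbbp4 knockdown library (0.0850 and 0.0935) or either control library (0.117 and 0.109).

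Tex15, which is needed in mouse spermatocytes to repair the DNA breaks of meiosis, had 132 and 141 in the double knockdown, 135 and 76.1 after Rbbp4 knockdown, 48.9 and 55.2 after Rbbp7 knockdown, and 51.2 and 32.3 in the control. The double knockdown values lay close together and above both control values, and 1 Rbbp4 knockdown library reached the same level. Its log2 difference in the double knockdown was 1.73 ± 0.37, which did not pass (adjusted p = 0.0660), nor did it pass in any of the alternatives. Hormad1 (chromosome 3, 95559677 to 95587671), a protein of unpaired chromosome axes, had 539.9 and 513 in the double knockdown, 305 and 332 after Rbbp4 knockdown, 431 and 339.8 after Rbbp7 knockdown, and 369 and 152 in the control. The control values differed 2.42-fold, counted as value + 1, more than the knockdown groups did. Hormad1 had a log2 difference of 1.15 ± 0.35 (adjusted p = 0.138), which passed at 1.79 (adjusted p = 0.0383) without control replicate 1 and was 0.51 without control replicate 2. Of its 75-base stretches 12.6% also occur in Gm15529.

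Meiotic cohesin is the ring that holds sister chromatids together. Stag3, its germline subunit, had 497 and 336 in the double knockdown, 266 and 297 after Rbbp4 knockdown, 228 and 155 after Rbbp7 knockdown, and 295 and 139 in the control. The double knockdown values were above both control values, and the control values again lay far apart. Its log2 difference was 1.01 ± 0.36 (adjusted p = 0.198), while the cohesin genes Smc1b (0.022 ± 0.36) and Rec8 (−0.13 ± 0.26) lay near 0. The Stag3 difference was 1.55 without control replicate 1 and 0.47 without control replicate 2. Whether these subunits differed from each other was not tested.

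The other synaptonemal complex genes varied in sign. Syce2, a central element protein and the member with the second highest level per kilobase, had 583 and 566 in the double knockdown, 578 and 709 after Rbbp4 knockdown, 579 and 528 after Rbbp7 knockdown, and 715 and 681 in the control. Both double knockdown values were below both control values, with a log2 difference of −0.28 ± 0.15 (adjusted p = 0.378). Its partners in the central element, Syce1 and Tex12, had log2 differences of 0.88 ± 0.48 (adjusted p = 0.384) and 0.50 ± 0.68 (adjusted p = 0.756). The lateral element genes Sycp3 and Sycp2 had 0.33 ± 0.22 (adjusted p = 0.483) and −0.015 ± 0.34 (adjusted p = 0.989). Sycp3 shares 660 of its 1264 exon bases with Chpt1 on the other strand, a gene at 1963 to 2972 in these libraries, and whether strand was used in counting is not given in the sources used here, so the Sycp3 values are uncertain.

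Hormad2, the companion of Hormad1 on chromosome axes, had 11.2 and 63.7 in the double knockdown, 31.9 and 38.2 after Rbbp4 knockdown, 18.6 and 32.6 after Rbbp7 knockdown, and 26.1 and 10.4 in the control. The double knockdown libraries were the lowest but 1 and the highest of the 8, and its log2 difference of 0.68 ± 0.80 (adjusted p = 0.712) turned to −0.53 without double knockdown replicate 2 and was 0.054 without control replicate 2. Zcwpw1, a reader of the histone marks that Prdm9 lays in meiosis, had 0.52 ± 0.40 (adjusted p = 0.541). Meioc, which keeps germ cells in meiotic prophase, had −0.42 ± 0.71 (adjusted p = 0.814).

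Below the tested level, Tex11, an X-linked gene of meiotic recombination, had 18.9 and 16.3 in the double knockdown, 6.07 and 3.70 after Rbbp4 knockdown, 8.20 and 8.77 after Rbbp7 knockdown, and 9.58 and 4.81 in the control. Both double knockdown values were above the other 6. Spo11, the enzyme that cuts DNA to start recombination, and Mei4, its helper, were at or under 5.09 in every library.

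**Figure D4:**
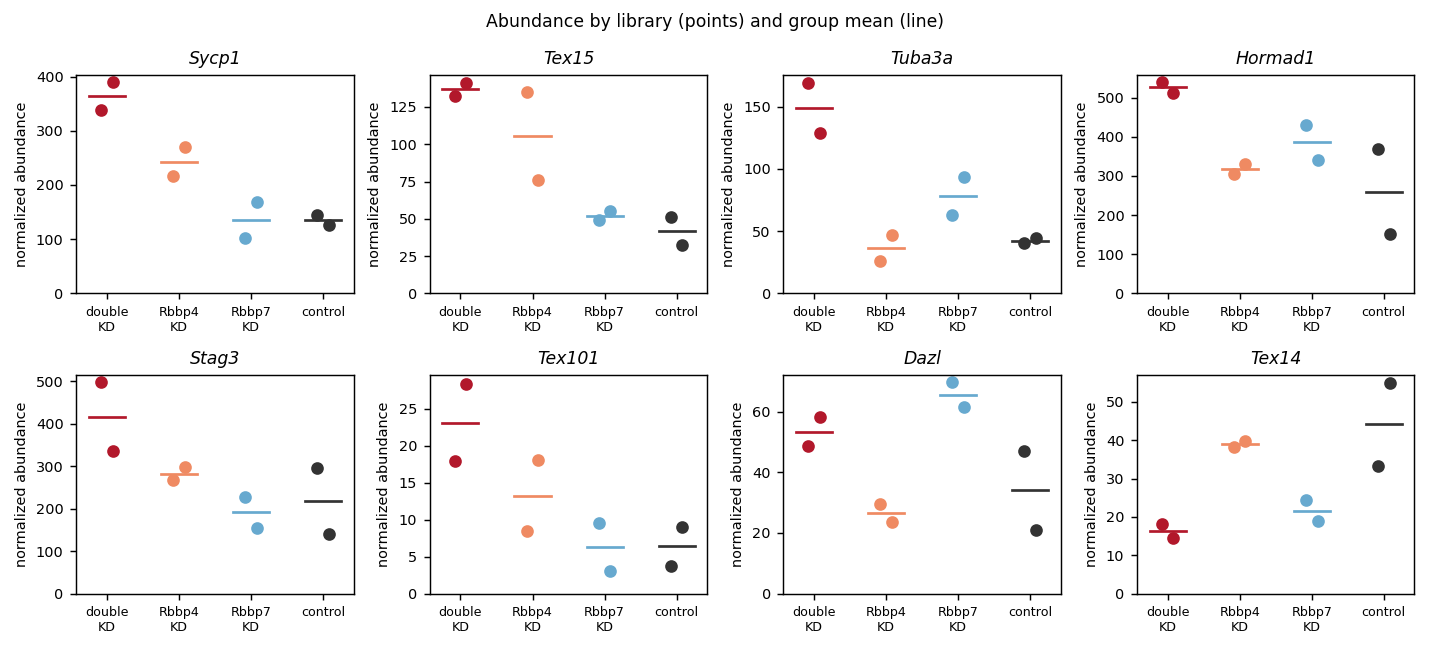
Normalized abundance (vertical axis) of 8 germline genes by library (points) and group mean (line), from the double knockdown at the left to the control at the right. Sycp1 and Tuba3a have both double knockdown points above all 6 others, Dazl has its highest points after Rbbp7 knockdown, and Tex14 has its lowest in the double knockdown.

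None of the piRNA pathway genes (0 of 8) passed the test in the double knockdown. The median log2 difference of the 8 tested was 0.26, with 6 positive. At an unadjusted p below 0.05 there was 1, Tdrd9, a helicase with a tudor domain that takes part in silencing transposons in mouse testis. Tdrd9 had 291 and 169 in the double knockdown, 208 and 127 after Rbbp4 knockdown, 112 and 141 after Rbbp7 knockdown, and 121 and 134 in the control. Its double knockdown values were above both control values, with a log2 difference of 0.79 ± 0.33 (adjusted p = 0.259).

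Piwil2, a PIWI protein that binds piRNAs, was by far the most abundant PIWI gene, with 1189 and 909 in the double knockdown, 805 and 970.5 after Rbbp4 knockdown, 1293 and 1107 after Rbbp7 knockdown, and 1208 and 872 in the control. Each knockdown overlapped the control, while both Rbbp7 knockdown values were above both Rbbp4 knockdown values. The log2 difference of Piwil2 in the double knockdown was 0.018 ± 0.20 (95% interval −0.43 to 0.47, adjusted p = 0.978, limma). Piwil1 and Piwil4, its paralogues, had at most 12.4 and 4.53 in any library. Ddx4, the germ cell helicase also called Vasa, had 227 and 87.2 in the double knockdown, 152 and 94.9 after Rbbp4 knockdown, 137 and 126 after Rbbp7 knockdown, and 124 and 84.7 in the control. The double knockdown libraries were 1 well above and 1 between the control values, with a log2 difference of 0.46 ± 0.44 (adjusted p = 0.636).

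Mael, a piRNA factor of germ granules, had a log2 difference of 0.36 ± 0.31 (adjusted p = 0.587). Tdrkh, a mitochondrial tudor protein, had 0.60 ± 0.76 (adjusted p = 0.735), and 2255 of its 6142 exon bases lie opposite Oaz3. Asz1 (0.15 ± 0.26), Tdrd5 (−0.088 ± 0.28) and Mov10l1 (−0.048 ± 0.42), a helicase that handles piRNA precursors, lay nearer 0. Tdrd1, a tudor partner of PIWI proteins that was below the tested level, had 10.6 and 16.1 in the double knockdown, 6.44 and 4.71 after Rbbp4 knockdown, 4.75 and 2.09 after Rbbp7 knockdown, and 1.27 and 3.01 in the control. Both of its double knockdown values were above the other 6.

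The other germline genes ran from Tex14, the lowest of the tested members in the double knockdown, to Tuba3a, the highest. The median log2 difference of the 10 tested was 0.56, with 7 positive and 0 called. Tuba3a (ENSMUSG00000067702, chromosome 6, 125278274 to 125286042), a testis alpha-tubulin, had 169 and 129 in the double knockdown, 26.1 and 47.1 after Rbbp4 knockdown, 62.7 and 93.8 after Rbbp7 knockdown, and 40.6 and 44.1 in the control. Both double knockdown values were above all 6 others, both Rbbp7 knockdown values were above the control values, and the Rbbp4 knockdown values spanned them. The log2 difference was 1.77 ± 0.39 (95% interval 0.90 to 2.65), with an adjusted p of 0.0691 that did not pass here or in any alternative. Of the 75-base stretches of Tuba3a 19.9% also occur in Tuba3b or Gm5366, so its values are uncertain. Tuba3b itself, with 12.6 and 3.71 in the double knockdown, 8.36 and 7.86 after Rbbp4 knockdown, 7.13 and 11.5 after Rbbp7 knockdown, and at most 2.54 in the control, was below the tested level.

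Tex101, a surface protein of germ cells, had 17.9 and 28.3 in the double knockdown, 8.46 and 18.1 after Rbbp4 knockdown, 9.53 and 3.12 after Rbbp7 knockdown, and 3.79 and 9.02 in the control. Its levels were low, the double knockdown values were above both control values, and the log2 difference of 1.76 ± 0.84 did not pass (adjusted p = 0.318). Tex101 reached the mean of 10 only through the double knockdown, since it averaged 8.66 over the other 6 libraries, and it had to be high there to be tested. It is counted in the 23 positive members and in the class median of 0.56, which are 22 of 31 and 0.49 without it. D1Pas1, a retrogene of the Ddx3 helicase family active in spermatocytes, had 158 and 169 in the double knockdown, 95.9 and 87.2 after Rbbp4 knockdown, 122 and 106 after Rbbp7 knockdown, and 112 and 98.3 in the control. Both double knockdown values were above the other 6, with a log2 difference of 0.63 ± 0.24 (adjusted p = 0.226).

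Taf7l, a germ cell paralogue of a general transcription factor subunit, had 3.996 and 15.1 in the double knockdown. It was listed at 0.879 and 0 after Rbbp4 knockdown and at 0 after Rbbp7 knockdown and the control, and it was below the tested level. Taf7l was above 0 in 3 libraries and met the rule of at least 2 only through the double knockdown. It therefore had to be above 0 there to be a member. Dazl, an RNA-binding translation regulator of germ cells, had 48.5 and 58.3 in the double knockdown, 29.5 and 23.6 after Rbbp4 knockdown, 69.7 and 61.6 after Rbbp7 knockdown, and 47.1 and 21.1 in the control. Its Rbbp7 knockdown values were the highest of the 8, and its log2 difference from the control was 0.73 ± 0.46 in the double knockdown (adjusted p = 0.445), −0.25 ± 0.46 after Rbbp4 knockdown and 1.03 ± 0.46 after Rbbp7 knockdown (adjusted p = 0.523). In the double knockdown it was 1.30 without control replicate 1 and 0.17 without control replicate 2.

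Tex14 had the lowest difference of the tested members. This gene, which stabilizes the bridges between dividing germ cells, had 18.1 and 14.6 in the double knockdown, 38.2 and 39.8 after Rbbp4 knockdown, 24.3 and 18.9 after Rbbp7 knockdown, and 33.4 and 55.0 in the control. The values of the double and the Rbbp7 knockdown were below both control values, and those of the Rbbp4 knockdown lay between them. The log2 difference was −1.35 ± 0.47 in the double knockdown (adjusted p = 0.193) and −0.97 ± 0.47 after Rbbp7 knockdown (adjusted p = 0.558).

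All knockdown values of Tex19.1, the member with the highest level, lay between its control values. This gene of germ cells, early embryos and placenta, which restrains retrotransposons, had 1844 and 2304 in the double knockdown, 2140.5 and 2219.9 after Rbbp4 knockdown, 2061 and 1988 after Rbbp7 knockdown, and 1755 and 2439.7 in the control. The control libraries were the lowest and the highest of the 8, and the log2 difference of −0.0055 ± 0.17 (95% interval −0.39 to 0.38) changed sign with the scaling. Dpep3, a membrane dipeptidase of germ cells, had 286 and 402 in the double knockdown, 295 and 377 after Rbbp4 knockdown, 533 and 473 after Rbbp7 knockdown, and 353 and 387 in the control. Its Rbbp7 knockdown values were the highest of the 8, with a log2 difference of 0.44 ± 0.21 from the control (adjusted p = 0.550), against −0.12 ± 0.21 in the double knockdown (adjusted p = 0.812). Brdt, the testis bromodomain protein, had 0.49 ± 0.44 in the double knockdown, Slc25a31, a germ cell ADP/ATP carrier, 0.67 ± 0.78 and the kinase-like Stk31 0.33 ± 0.32, with adjusted p between 0.611 and 0.706.

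**Figure D5:**
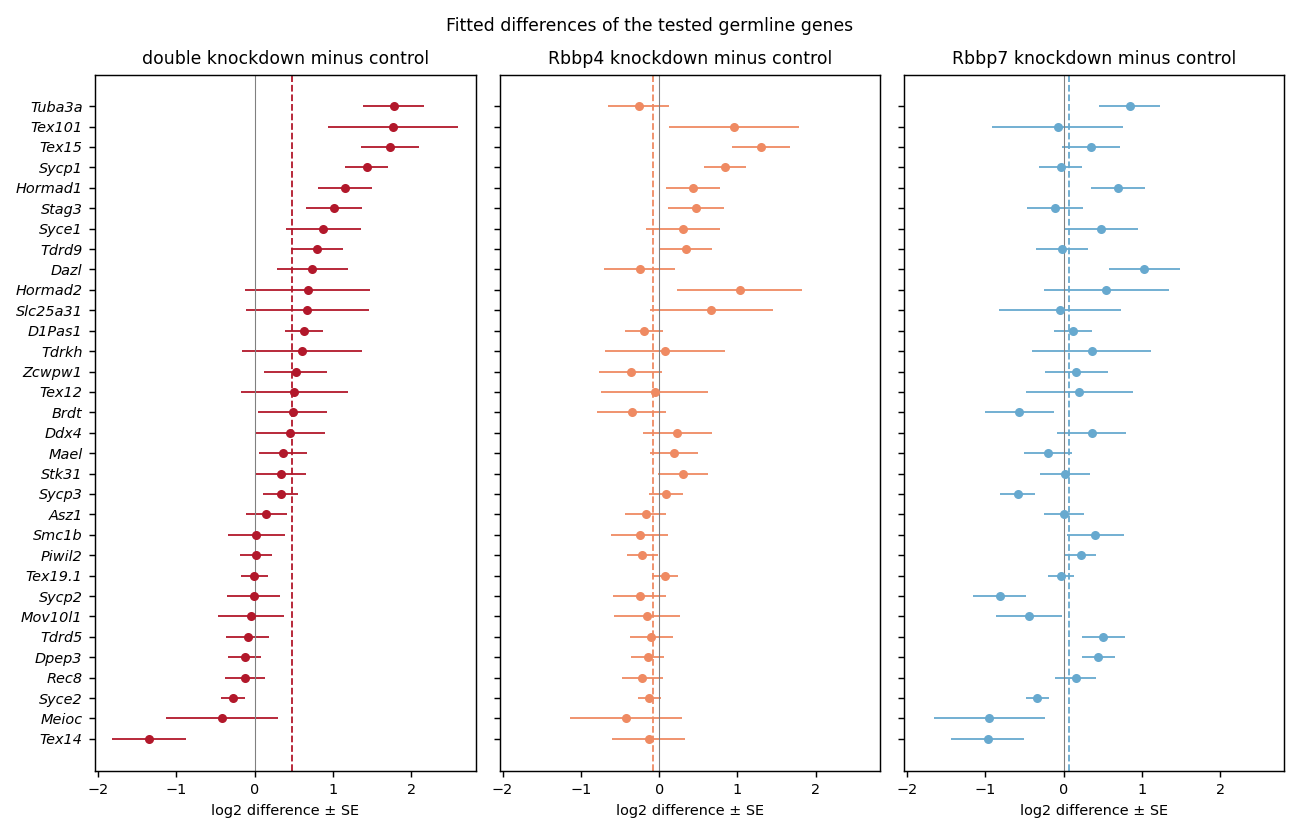
Fitted log2 differences of the 32 tested germline genes from the control with their standard errors (horizontal axis), in the double, Rbbp4 and Rbbp7 knockdown, with genes in the same order in each panel. The dashed line marks the median of the 32 genes, which is 0.47 in the double knockdown, −0.078 after Rbbp4 knockdown and 0.068 after Rbbp7 knockdown, and the solid line marks 0.

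With Rbbp4 knocked down alone, the members scattered about 0. Of the 32 tested, 15 had a positive log2 difference, the median was −0.078 against 0.0049 over all tested genes, and 0 were called by limma, where 0.0239% of all genes were called. At an unadjusted p below 0.05 there were 2 higher and 0 lower, or 6.25%, against 5.86% of all genes. Those were Tex15, with 1.30 ± 0.37 (adjusted p = 0.723), and Sycp1, with 0.84 ± 0.27 (adjusted p = 0.771). Hormad2 had 1.03 ± 0.80 and Tex101 0.95 ± 0.84, at adjusted p of 0.901 and 0.907. The median was 0.18 without control replicate 1 and −0.16 without control replicate 2.

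With Rbbp7 knocked down alone, the members also scattered about 0. Of the 32 tested, 18 had a positive log2 difference, the median was 0.068 against 0.0095 over all tested genes, and 0 were called, where 0.0239% of all genes were called. At an unadjusted p below 0.05 there were 1 higher, Dazl, and 2 lower, in all 9.38% of the members against 9.55% of all genes. These shares are alike, so the genes are given by their values only. The lower genes were Sycp3, whose values are uncertain because of the overlap with Chpt1, and Sycp2. Sycp3 had −0.58 ± 0.22 (adjusted p = 0.451), with 179 and 233 after Rbbp7 knockdown against 346 and 271 in the control. Sycp2 had −0.81 ± 0.34 (adjusted p = 0.504), with 107 and 73.1 after Rbbp7 knockdown against 216 and 113 in the control. Both Rbbp7 knockdown values of both genes lay below both control values. That held for 7 of the 32 members (21.9%), against 19.7% of all tested genes. The median was 0.33 without control replicate 1 and −0.043 without control replicate 2.

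Set against a single knockdown, the double knockdown again lay higher for most members, in comparisons that share the double knockdown libraries with the one above. Against the Rbbp4 knockdown 28 of the 32 members had a positive log2 difference, with a median of 0.26 against −0.0033 over all tested genes, or 25 members under TMM scaling, 24 under quantile normalization and 21 of 33 without Rbbp4 knockdown replicate 2. None was called by limma (0 of 32), where 0.0159% of all genes were, and 2 higher and 1 lower (9.38%) had an unadjusted p below 0.05, against 9.57% of all genes. Tuba3a had 2.04 ± 0.39 (adjusted p = 0.187) and D1Pas1 0.83 ± 0.24 (adjusted p = 0.349), and the lower gene was Tex14, with −1.21 ± 0.47 (adjusted p = 0.467).

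Against the Rbbp7 knockdown 25 of the 32 had a positive log2 difference, with a median of 0.37 against −0.014 over all tested genes. Again 0 were called, where 0.358% of all genes were, and 8 higher and 1 lower (28.1%) had an unadjusted p below 0.05, against 15.0% of all genes. Of the 8, 5 were meiosis genes, a class that makes up 14 of the 32 tested members. Sycp1 had 1.46 ± 0.27 (adjusted p = 0.0588), Sycp3 0.91 ± 0.22 (adjusted p = 0.110), Tex15 1.38 ± 0.37 (adjusted p = 0.140), Stag3 1.11 ± 0.36 (adjusted p = 0.196) and Sycp2 0.80 ± 0.34 (adjusted p = 0.314). Sycp2 and Sycp3 were also low after Rbbp7 knockdown against the control, at −0.81 and −0.58. In the double knockdown against the control they had −0.015 and 0.33. The lower gene was Dpep3, with −0.57 ± 0.21 (adjusted p = 0.253).

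The interaction asked whether the double knockdown differed from the sum of both single knockdowns on the log2 scale. Of the 32 members 23 had a positive interaction, with a median of 0.17 against −0.017 over all tested genes, or 18 without control replicate 1 and 20 under quantile normalization, where the median was 0.0996. Limma called 0, where 0.00796% of all genes were called, and 1 member, or 3.13%, had an unadjusted p below 0.05, against 6.49% of all genes. That was Sycp3, with 0.83 ± 0.31 (adjusted p = 0.760). For Sycp1 the interaction was 0.62 ± 0.38 (95% interval −0.24 to 1.49) and for Tex15 0.081 ± 0.53 (95% interval −1.11 to 1.27). For Tuba3a it was 1.19 ± 0.55 (95% interval −0.047 to 2.44). These intervals hold effects below, at and above the sum of the single knockdowns.

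Members with and without an E-box upstream are given side by side as a description. Of the 13 tested members with CACGTG, 11 had a positive log2 difference in the double knockdown, with a median of 0.49, and 10 of the 17 without it did, with a median of 0.15. In the Rbbp4 knockdown 9 of 13 and 5 of 17 were positive, with medians of 0.23 and −0.17. In the Rbbp7 knockdown the order was turned round, with 4 of 13 and 12 of 17 positive and medians of −0.047 and 0.16. The genes with the letters include Sycp1, Hormad1 and Stag3, those without include Tuba3a, Dazl and Tex14, and Tex15 had no promoter entry. The difference between these groups of genes was not tested, and the same split was not made over all tested genes.

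Other germline genes that are not members were read from lists made for comparison. Of 20 tested meiosis genes, 14 had a positive log2 difference in the double knockdown, with a median of 0.18, of 14 tested piRNA genes 12, with a median of 0.40, and of 13 further germline genes 8, with a median of 0.30. In these 3 lists 0 genes were called by limma, where 1.15% of all tested genes were. At an unadjusted p below 0.05 there were 0, 2 and 2, against 17.3% of all tested genes. The single knockdowns gave medians of the same order for the meiosis and piRNA lists. After Rbbp4 knockdown the medians were 0.36 for the meiosis list (12 of 20 positive), 0.29 for the piRNA list (11 of 14) and 0.11 for the further germline list (8 of 13). After Rbbp7 knockdown they were 0.21 (16 of 20 positive), 0.42 (12 of 14) and −0.24 (4 of 13). Set against the Rbbp7 knockdown, the double knockdown had medians of −0.11, −0.026 and 0.098, and against the Rbbp4 knockdown −0.0037, 0.13 and 0.12. The interaction had medians of −0.17, −0.32 and 0.38, where the members had 0.17. Whether these lists differ from the members was not tested. Among the 14 tested subunits of the germline-repressing Polycomb complex, Max fell. Max had 708 and 730.3 in the double knockdown, 665 and 691 after Rbbp4 knockdown, 1029.5 and 1088 after Rbbp7 knockdown, and 1256 and 1249 in the control. All 4 libraries that received Rbbp4 siRNA were below the other 4, and the log2 difference was −0.80 ± 0.12 in the double knockdown (adjusted p = 0.0243) and −0.88 ± 0.12 after Rbbp4 knockdown (adjusted p = 0.121). E2f6 had −0.62 ± 0.18 in the double knockdown (adjusted p = 0.136), and Mga, Pcgf6 and L3mbtl2 lay between −0.10 and −0.034.

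Of 8 genes that write or remove DNA methylation, 2 had a positive log2 difference in the double knockdown, with a median of −0.20. Limma called 1, Tet1, an enzyme that oxidizes methylated cytosine, which rose. Tet1 had 2491 and 2022 in the double knockdown, 1910.0 and 1826 after Rbbp4 knockdown, 1581 and 1574 after Rbbp7 knockdown, and 1400.3 and 1272 in the control. The groups did not overlap, and the log2 difference was 0.75 ± 0.13 in the double knockdown (adjusted p = 0.0351). Dnmt1, which copies methylation at each cell division, had −0.035 ± 0.14 (adjusted p = 0.927). Tet2 and Tet3 went the other way from Tet1. Tet2 had 476 and 544 in the double knockdown and 1975 and 719 in the control. Tet3 had 165 and 133 in the double knockdown and 183 and 194 in the control. Dnmt3l was also lower, at 530 and 504 in the double knockdown and 693 and 697 in the control. Of 7 genes of H3K9 methylation, Trim28, a corepressor that recruits it, fell, with 7157 and 6402 in the double knockdown, 7978 and 7708 after Rbbp4 knockdown, 11056 and 10537 after Rbbp7 knockdown, and 10829 and 10007 in the control. Its log2 difference was −0.62 ± 0.11 in the double knockdown (adjusted p = 0.0341), and the libraries with Rbbp4 siRNA were again the lower 4.

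Markers of cells that could carry germline or other foreign RNA were summed per library. Preimplantation embryo markers, all 10 in the table, summed highest, to 30443 and 29465 in the double knockdown, 37316 and 36316 after Rbbp4 knockdown, 35936 and 36207 after Rbbp7 knockdown, and 34585 and 42006 in the control. Both double knockdown sums were below the other 6. Of the 9 tested markers 1 had a positive log2 difference in the double knockdown and 2 after Rbbp7 knockdown. In each, 5 had an unadjusted p below 0.05 (limma), against 17.3% and 9.55% of all tested genes. Krt18, a keratin of the trophectoderm, was called in the double knockdown, with a log2 difference of −1.08 ± 0.19 (adjusted p = 0.0358, limma). Krt18 had 1545 and 1959 in the double knockdown, 3217 and 2395 after Rbbp4 knockdown, 1174 and 1421 after Rbbp7 knockdown, and 3300 and 4116 in the control. Primordial germ cell markers, all 7 in the table, summed to 10701 and 10608 in the double knockdown, 12635 and 11825 after Rbbp4 knockdown, 13164 and 13204 after Rbbp7 knockdown, and 13495 and 13777 in the control, nearly all of it from Dppa3 and Tfap2c, which the early embryo also expresses. The scarcer markers of this list varied, and not all followed the sum. Prdm14, a transcription factor of germ cell specification, had 40.1 and 54.5 in the double knockdown, 29.6 and 21.2 after Rbbp4 knockdown, 15.0 and 27.1 after Rbbp7 knockdown, and 12.7 and 18.0 in the control. Both double knockdown values were above the other 6, with a log2 difference of 1.56 ± 0.52 (adjusted p = 0.175). Nanos2 had 13.7 and 8.65 in the double knockdown and 1.27 and 6.01 in the control, below the tested level. Nanos3 was at 0 in both double knockdown libraries and at 2.50 and 0.997 in the control. Dnd1 overlapped, with 8.58 and 16.1 in the double knockdown and 5.90 and 11.3 in the control. Kit had 8.45 and 8.69 in the double knockdown and 11.5 and 0 in the control. Over the 4 tested markers, Prdm14, Kit, Tfap2c and Dppa3, the median was 0.64, with 2 positive and 0 called. That median rests on Kit, which was positive because of its 0 in control replicate 2. At an unadjusted p below 0.05 there were 2, Prdm14 higher and Dppa3 lower (−0.44 ± 0.10, adjusted p = 0.0860, limma). Oocyte markers, all 12 in the table, summed to 199 and 141 in the double knockdown, 153 and 114 after Rbbp4 knockdown, 154 and 112 after Rbbp7 knockdown, and 174 and 122 in the control, and so overlapped between groups, with 0 of the 5 tested markers called. Sperm markers, 6 of 10 in the table, summed to at most 14.0 in any library, and Prm1 was at 0 in 5 of the 8. Cumulus and granulosa markers, 5 of 10 in the table, summed to 356 and 286 in the double knockdown, 163 and 189 after Rbbp4 knockdown, 287 and 326 after Rbbp7 knockdown, and 157 and 145 in the control. The sums of the double and the Rbbp7 knockdown were above those of the other libraries. Most of these sums came from Hsd17b1, an enzyme of estradiol synthesis, and Foxl2, a transcription factor that defines granulosa cells. Foxl2 had 101 and 74.4 in the double knockdown, 28.6 and 33.8 after Rbbp4 knockdown, 16.6 and 19.8 after Rbbp7 knockdown, and 29.3 and 12.0 in the control. Its double knockdown values were above the other 6. These were the 2 tested markers of the list, with a median log2 difference of 1.48 in the double knockdown and 2 of 2 at an unadjusted p below 0.05, and neither passed after adjustment (Foxl2 2.14 ± 0.51, adjusted p = 0.0892; Hsd17b1 0.81 ± 0.21, adjusted p = 0.101). Inhba had 9.50 and 4.97 in the double knockdown and 2.55 and 4.01 in the control, and Amh and Inha, which also define granulosa cells, were at or under 6.29 in every library. Blood markers, 3 of 7 in the table, summed to 339 and 342 in the double knockdown, 214 and 287 after Rbbp4 knockdown, 267 and 142 after Rbbp7 knockdown, and 401 and 209 in the control. Most of these sums came from Cd68, with 329 and 317 in the double knockdown and 395 and 201 in the control. The haemoglobin genes Hba-a1 and Hba-a2 were at or under 24.4 in every library. The part of these markers in the germline result was not tested.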

How the data were processed

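Polyadenylated RNA of mouse late morulae was sequenced in 8 libraries, 2 in each of 4 groups taken from the sample titles. Per the labels' protocols, oligo(dT) beads picked out mRNA, which was fragmented, reverse transcribed and amplified by PCR. The submitters' processing notes name Trimmomatic, HISAT2, featureCounts, DESeq2 and the build GRCm38. Their versions and settings, the annotation release and strand use are named nowhere in the sources used here. The authors deposited a signal per Ensembl gene, which the table's name gives as abundance normalized by DESeq2. These are not raw counts. Of the values below 20, 41.5 to 63.8% per library were multiples of the best-fitting step to a tolerance of 0.05 steps, so whole reads were not recovered and no count model was fitted. Depth in reads is therefore unknown and no counting interval is given. The double knockdown columns write cKD where the titles write KD and were matched by naming both genes. Reads shared by near-identical genes may have been dropped or split.

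Symbols came from the GENCODE annotation of GRCm38 and matched 18942 of 19058 identifiers. Promoter windows came from RefSeq on GRCm38.p6. Values were analysed as log2(value + 1), so fold changes are on that scale and understate the change of low genes. All 12565 genes averaging 10 or more were fitted together with limma 3.58.1 in R 4.3.3, with 1 mean per group, all 8 libraries and an intensity trend in the variance prior, which left 4 residual and 5.18 prior degrees of freedom. Two-sided p-values were corrected by the Benjamini-Hochberg procedure over all tested genes within each of the 6 comparisons, and an adjusted p below 0.05 was called. The fit was tested on simulated data. Errors after log2 differences are standard errors of the fit. All comparisons with the control share its 2 libraries. The members, the comparison lists and the alternatives were chosen with earlier results of these data known, so no list is independent evidence of its direction.

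Each library's value is given for members called in any comparison or with an absolute log2 difference of at least 1 from the control. It is also given for those among the 5 with the highest mean or among the 5 with the smallest p in the double knockdown. Ddx4, Tdrd9, D1Pas1, Tex11, Taf7l, Tdrd1, Tuba3b, Btbd18, Sohlh2, Foxl2, Inhba, Prdm14, Nanos2, Nanos3, Dnd1, Kit, Cd68, Tet2, Tet3 and Dnmt3l were added after their values were seen. Of the comparison lists, called genes are named. There were 19 alternative settings: other pseudocounts, filters and scalings, TMM factors (trimmed mean of M values), no trend, array weights, a replicate block, only the groups compared, and each library left out in turn.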

Additional observations from a re-analysis of the deposited data

How the results depend on the processing

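The count of members called in the double knockdown was 1 in 9 of 19 alternatives. Without control replicate 1 that member was Hormad1, and otherwise Sycp1. The count was 0 with no filter on the mean, with no trend in the variance prior, with array weights per group and with only the groups compared, and 0 to 1 when a library was left out, 0 without either double knockdown library, either Rbbp4 knockdown library or control replicate 2. The replicate numbers do not pair the libraries (correlations of deviations −0.022 to 0.051), and with a replicate block the count was 0, with 113 genes called over all genes and an adjusted p of 0.0506 for Sycp1. Over all genes limma called 144 in the double knockdown, against 196 with a mean of at least 50, 10 with no trend, 38 with array weights, 3 with only the groups compared and 27 to 99 when a library was left out. Against the Rbbp7 knockdown 1 member was called with a mean of at least 50.

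The median log2 difference of the tested members in the double knockdown was positive in all 19 alternatives, at 0.19 to 0.61 when a library was left out. Over the same settings it ran from −0.16 to 0.18 after Rbbp4 knockdown and −0.043 to 0.33 after Rbbp7 knockdown. Against the Rbbp4 knockdown it ran from 0.20 to 0.46, and against the Rbbp7 knockdown from 0.30 to 0.45, with 0.42 at a mean of at least 50, 0.23 under quantile normalization and 0.41 after scaling to equal totals. For the interaction it ran from 0.12 to 0.46, with 0.32 without a filter, 0.35 at a mean of at least 50 and 0.0996 under quantile normalization. Positive interactions numbered 18 of 32 without control replicate 1. The cause of these shifts was not tested.

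In the double knockdown against the control, 4 named members changed sign. Tex19.1 had 0.046 under quantile normalization, 0.040 after scaling to equal totals, 0.15 without double knockdown replicate 1 and 0.23 without control replicate 2, and its range over left-out libraries was −0.24 to 0.23. Piwil2 ran from −0.22 without control replicate 2, and −0.18 without double knockdown replicate 1, to 0.25. Dpep3 ran from −0.37 to 0.12, positive without double knockdown replicate 1, and Hormad2 from −0.53, without double knockdown replicate 2, to 1.88. With 2 libraries per group, members with low values such as Tex101 and Hormad2 had standard errors near 0.8, which limits what could pass.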

Other observations

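Among the germline genes read for comparison, 4 had an unadjusted p below 0.05 in the double knockdown. They were 0 of 20 meiosis, 2 of 14 piRNA and 2 of 13 further germline genes, against 17.3% of all tested genes. Btbd18 and Sohlh2 are given here, and the others are not. Btbd18, a nuclear factor that drives transcription of piRNA precursors in mouse testis, had 1666 and 1278 in the double knockdown, 995 and 1026 after Rbbp4 knockdown, 1202 and 1217 after Rbbp7 knockdown, and 912 and 679 in the control. All 6 knockdown libraries were above both control libraries, and the log2 difference of 0.89 ± 0.18 in the double knockdown had an adjusted p of 0.0512 (limma). Sohlh2, a transcription factor of early germ cells, had 180.4 and 233 in the double knockdown, 112 and 150.1 after Rbbp4 knockdown, 52.3 and 89.7 after Rbbp7 knockdown, and 119.5 and 75.2 in the control. Its double knockdown values were above the other 6, with a log2 difference of 1.10 ± 0.36 (adjusted p = 0.161). These genes were named after their values were seen.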
